A study of Mus musculus with 6 samples.

Results

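The nuclear genes of respiratory complexes II to V, with cytochrome c and the factors that assemble the complexes, were compared between mouse extraembryonic endoderm (XEN) cells and mouse embryonic stem (ES) cells. The genes were taken by their symbols in the deposited tables and not by their values: those of the succinate dehydrogenase (Sdh), ubiquinol-cytochrome c reductase (Uqcr and Uqcc), cytochrome c oxidase (Cox) and ATP synthase (Atp5, Atpaf and Atpif1) series, and 8 others that were listed one by one (Cyc1, Cycs, Bcs1l, Surf1, Sco1, Sco2, Lrpprc and Pet100). This rule found 71 of the 17710 genes and gene models in any of the 6 tables. They were 44 subunit genes (4 of complex II, 9 of III, 16 of IV and 15 of V), the gene of somatic cytochrome c, and 26 assembly factors and regulators. XEN cells represent the primitive endoderm, from which the yolk sac endoderm forms. They were of strain ICR and were grown in RPMI1640 medium with 15% fetal bovine serum, and the labels add Glut and BME. ES cells represent the pluripotent epiblast. They were of strain 129/Ola and were grown on gelatin in serum-free N2B27-2iLIF medium. Total RNA of 3 libraries of each cell type, lettered A to C, was sequenced on the BGISEQ-500 platform. Cell type, strain and medium change together between the groups and cannot be told apart, and the labels do not state whether the 3 libraries of a cell type are separate cultures, so the p-values cover no more than their spread, which may be technical.

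Respiratory complexes sit in the inner mitochondrial membrane. Complex II oxidises succinate, complex III passes electrons to cytochrome c, complex IV reduces oxygen, and complex V makes ATP from the proton gradient. Mitochondrial DNA encodes cytochrome b of complex III, the catalytic core of complex IV and part of the membrane sector of complex V. The nuclear genes described here give the other subunits, among them cytochrome c1 and the Rieske iron-sulphur protein of complex III. They also give the carrier cytochrome c and the proteins that insert haem, copper and iron-sulphur clusters. Several complex IV subunits exist as a widely used form and a second form used in heart and muscle, testis or lung. Pluripotent cells are known for a strong use of glycolysis beside respiration.

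Promoters of nuclear respiratory genes are known for sites of NRF1, GABP (also called NRF2) and YY1. RefSeq windows of 300 bases, 250 before to 50 after the gene's start in GRCm38.p6, were at hand for 59 of the 71 genes. Searched on both strands, the letters GCATGCGC (NRF1) were found in the windows of 8 of the 59, or 13.6%, against 3.05% of 27025 genes in the same table. CCGGAAGT (GABP) was found for 9 of the 59, or 15.3%, against 4.31% of all genes, and AAGATGGC (YY1) for 7 of the 59, or 11.9%, against 3.19%. The 27025 genes were not limited to those expressed in these cells, so these shares do not set respiratory genes apart from other expressed genes. GCATGCGC and its reverse complement can overlap each other, and none of the 3 motifs contains another. Each motif occurred among genes that were higher and among genes that were lower in XEN cells: GCATGCGC in 2 of 18 higher and 4 of 26 lower genes with a window, CCGGAAGT in 6 and 2 of them, and AAGATGGC in 1 and 3 of them. For each motif, the window of the gene with the largest rise and of the gene with the largest fall among those holding it is printed here. The opposite changes within each pair follow from this choice. The match is in capitals.

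Cycs promoter, chr6:50566520-50566819, minus strand, higher in XEN: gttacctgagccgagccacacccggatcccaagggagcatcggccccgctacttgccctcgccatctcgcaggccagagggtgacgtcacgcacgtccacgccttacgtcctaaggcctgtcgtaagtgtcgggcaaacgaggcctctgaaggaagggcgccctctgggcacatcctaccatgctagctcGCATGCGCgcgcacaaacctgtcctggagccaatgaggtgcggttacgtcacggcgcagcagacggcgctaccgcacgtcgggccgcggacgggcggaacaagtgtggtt

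Sdhb promoter, chr4:140961021-140961320, plus strand, lower in XEN: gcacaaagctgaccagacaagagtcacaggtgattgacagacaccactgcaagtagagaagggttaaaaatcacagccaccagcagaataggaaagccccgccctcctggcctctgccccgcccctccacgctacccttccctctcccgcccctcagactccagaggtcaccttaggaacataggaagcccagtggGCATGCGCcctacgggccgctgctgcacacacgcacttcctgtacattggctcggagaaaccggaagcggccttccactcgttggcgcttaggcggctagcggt

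Cox15 promoter, chr19:43752951-43753250, minus strand, higher in XEN: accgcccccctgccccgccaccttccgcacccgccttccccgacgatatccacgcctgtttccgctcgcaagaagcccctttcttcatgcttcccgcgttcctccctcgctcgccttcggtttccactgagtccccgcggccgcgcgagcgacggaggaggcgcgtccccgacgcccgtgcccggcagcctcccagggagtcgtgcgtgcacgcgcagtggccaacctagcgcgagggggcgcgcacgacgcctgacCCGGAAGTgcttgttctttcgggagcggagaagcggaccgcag

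Bcs1l promoter, chr1:74588039-74588338, plus strand, lower in XEN: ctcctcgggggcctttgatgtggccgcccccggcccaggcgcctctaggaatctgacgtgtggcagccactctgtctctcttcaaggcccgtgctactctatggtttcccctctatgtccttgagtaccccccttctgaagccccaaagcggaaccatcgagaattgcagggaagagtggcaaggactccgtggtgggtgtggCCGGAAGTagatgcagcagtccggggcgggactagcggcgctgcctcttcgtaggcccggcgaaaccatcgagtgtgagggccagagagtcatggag

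Atp5j promoter, chr16:84834927-84835226, minus strand, higher in XEN: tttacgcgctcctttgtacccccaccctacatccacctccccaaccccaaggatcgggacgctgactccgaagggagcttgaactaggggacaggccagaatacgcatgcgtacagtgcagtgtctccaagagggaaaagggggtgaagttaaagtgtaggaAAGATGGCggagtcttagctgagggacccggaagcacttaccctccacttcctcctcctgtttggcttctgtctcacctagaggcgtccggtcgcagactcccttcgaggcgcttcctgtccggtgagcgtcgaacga

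Uqcc2 promoter, chr17:27133842-27134141, minus strand, lower in XEN: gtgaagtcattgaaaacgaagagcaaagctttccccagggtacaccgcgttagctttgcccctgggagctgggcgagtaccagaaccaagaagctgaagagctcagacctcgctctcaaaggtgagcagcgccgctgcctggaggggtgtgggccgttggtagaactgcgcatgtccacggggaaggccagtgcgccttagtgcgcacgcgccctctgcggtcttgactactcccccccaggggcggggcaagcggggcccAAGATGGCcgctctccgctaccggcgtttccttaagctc

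A match is a description of the letters and not of binding. Of the 9 factors of respiratory promoters and their coactivators that were looked up, 8 could be tested. Of these, 2 were higher and 3 lower in XEN cells, against 42.0% and 46.7% of all 13581 genes tested. With upper-quartile factors the split was 2 higher and 6 lower, and over all genes 5093 higher and 7059 lower. Nrf1 did not pass the test (log2 fold change 0.02, adjusted p = 0.628, edgeR quasi-likelihood), and with upper-quartile factors it turned to -0.12 and was called lower (adjusted p = 0.019). Gabpa, the DNA-binding part of GABP, was lower (log2 fold change -0.53), and Yy1 was higher (0.54). Esrra, a nuclear receptor of respiratory genes, was higher by 1.66 and passed the test against a 2-fold change. The coactivator genes Ppargc1b and Pprc1 were lower (log2 fold changes -0.91 and -0.11). Ppargc1a, too low to test, had 0 counts in XEN libraries and 1, 4 and 1 counts in ES libraries. Exons of Atp5j and Gabpa overlap on opposite strands in the annotation of GRCm38.

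The libraries held 20675311 to 22375875 expected counts. The 71 genes took 0.821% to 0.864% of them in XEN libraries and 1.01% to 1.04% in ES libraries. Markers fixed for the cell types were in place, with summed levels of 6 XEN markers of 4960 to 5274 CPM (counts scaled to the TMM-adjusted size of the library) in XEN and 4.66 to 5.39 CPM in ES libraries, and of 5 ES markers of 1.21 to 1.79 CPM in XEN and 3929 to 4019 CPM in ES libraries. Markers of other cells differed in both directions, and their sums were lower in XEN libraries. The 4 trophoblast markers came to 7.30 to 8.95 CPM in XEN and 79.2 to 82.2 CPM in ES libraries, mostly Tfap2c in ES cells, 4 of 5 fibroblast markers to 0.447 to 0.559 CPM in XEN and 2.86 to 3.43 CPM in ES libraries, and 3 of 4 muscle markers to 0 to 0.0932 CPM in XEN and 0.323 to 0.438 CPM in ES libraries. The trophoblast marker Cdx2 was higher in XEN libraries, at 0.695 to 1.03 CPM in XEN and 0.130 to 0.174 CPM in ES libraries, and the fibroblast marker Postn had 1, 3 and 4 counts in XEN and 0, 0 and 1 counts in ES libraries. Twist2 and Myod1 were listed in no table, and Ckm had 0 counts in XEN libraries. Their part in the results was not tested. In bulk RNA, less RNA per cell and fewer cells of a type cannot be told apart.

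Of the 71 genes, 69 had enough counts to be tested, and 68 were listed in all 6 tables. At an adjusted p under 0.05 (edgeR quasi-likelihood test, adjusted over all 13581 genes tested), 21 were higher and 34 were lower in XEN cells, and 14 did not pass. Over all genes tested, 42.0% were higher and 46.7% were lower, so the share of lower respiratory genes, 49.3%, was near that background and the share of higher ones, 30.4%, was below it. The changes were small. The median size of the log2 fold change was 0.34 among the respiratory genes and 0.92 among all genes tested, and the signed medians were -0.12 and -0.07. A change beyond 2-fold passed its own test (edgeR glmTreat) for 6 of the 69, or 8.70%, against 42.7% of all genes tested. They were Atp5e, Cox7a2, Cycs and Sdhaf2, which were higher, and Cox6b2 and Cox6a2, which were lower. Cox6a2 had enough counts to be tested only through its ES libraries, so it could not have been called higher. Among 35 nuclear subunit genes of complex I, 14 were higher, 15 were lower and 6 did not pass, a split that became 7 higher and 19 lower with upper-quartile factors. The counts rest on the scaling between libraries. With upper-quartile factors, which shift the median log2 fold change of all genes by -0.15, the respiratory genes split into 15 higher and 38 lower.

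**Figure D1:**
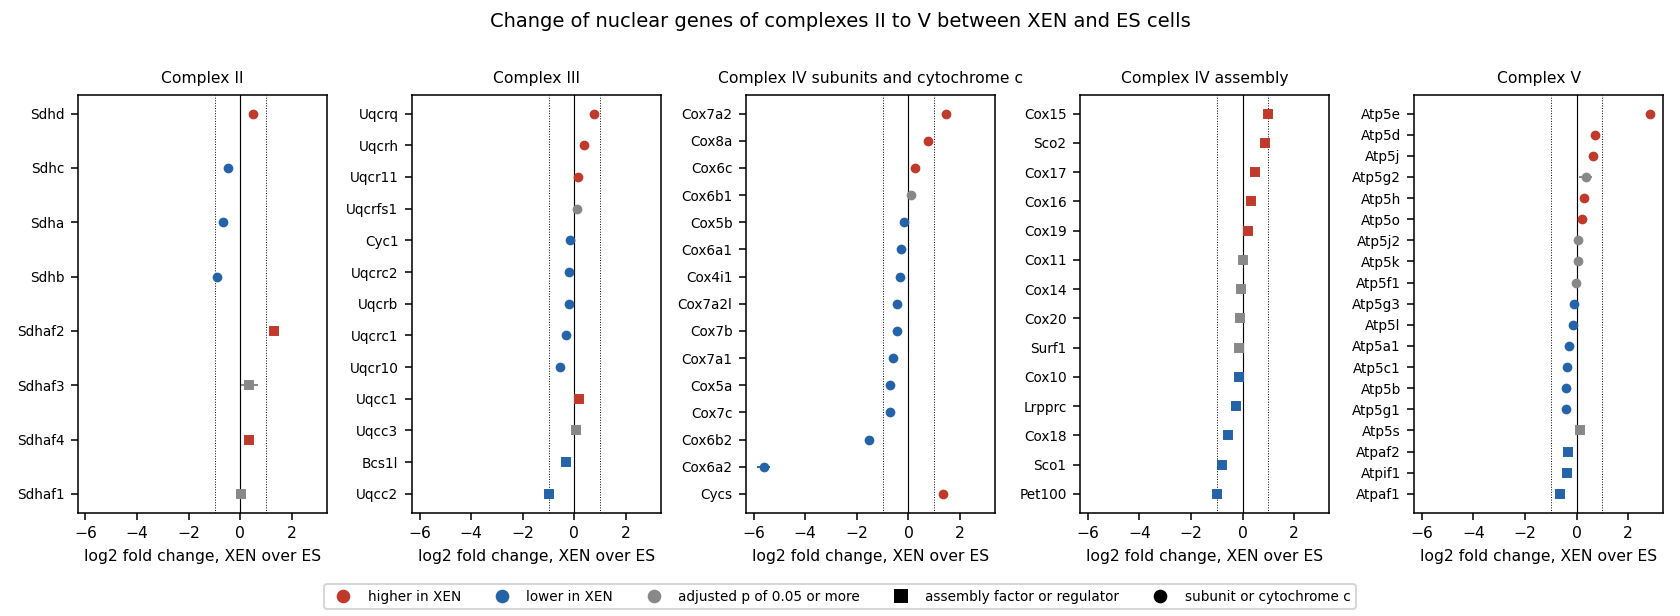
Log2 fold change (XEN over ES, x axis) of the 69 tested genes, by complex; bars are standard errors, circles subunits or cytochrome c, squares assembly factors or regulators, and dotted lines mark 2-fold. Most genes lie between the dotted lines, with Atp5e (2.82) far to the right and Cox6a2 far to the left, where the fitted value depends on the prior count because XEN libraries held 1 count in all.

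Levels were compared between genes as FPKM, fragments per kilobase of gene length and per size of the library, as the authors gave them. Summed over the 4 subunits of complex II, the level was 273, 288 and 279.8 FPKM in XEN libraries and 400.2, 397 and 403 FPKM in ES libraries. The groups did not overlap, and XEN cells stood at 0.701 of the ES level. With all subunit genes of the symbol rule summed, the other complexes were closer to the ES level. Without Sdhb and Cox8a, the genes of the highest mean level, the log2 difference was -0.33 for complex II and -0.44 for complex IV. Complex III came to 1345 ± 44 FPKM in XEN and 1599 ± 55 FPKM in ES cells, a ratio of 0.841. Complex IV came to 3282 ± 167 FPKM in XEN and 3833 ± 95 FPKM in ES cells, a ratio of 0.856. Complex V came to 4076 ± 108 FPKM in XEN and 4599 ± 81 FPKM in ES cells, a ratio of 0.886 (SD, n = 3 each). Each gave p = 0.1 in the two-sided exact permutation test, the smallest that 3 libraries against 3 allow. All genes together also summed to less in XEN tables, 485336 to 504981 FPKM against 538506 to 547993 FPKM in ES tables. With each library rescaled to the same total, the log2 differences were -0.39 for complex II, -0.12 for III, -0.10 for IV and -0.05 for V, against -0.51, -0.25, -0.23 and -0.17 as deposited. Relative to the 35 subunits of complex I, complex II was lower in XEN cells (log2 difference -0.32), and for complexes III, IV and V the differences were -0.06, -0.03 and 0.02. Exact permutation p was 0.1 for each of complexes II, III and IV over complex I (0.133 after Benjamini-Hochberg adjustment over the 8 ratios tested). For complex V over complex I it was 0.5 (0.571 after adjustment). These values rest on single genes. Without the gene of the highest mean level over the 6 libraries (Sdhb, Uqcrb, Cox8a and Atp5b), the differences over complex I were -0.14 for complex II, -0.03 for III, -0.25 for IV and 0.14 for V, so that complex IV and not complex II was then the lowest.

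**Figure D2:**
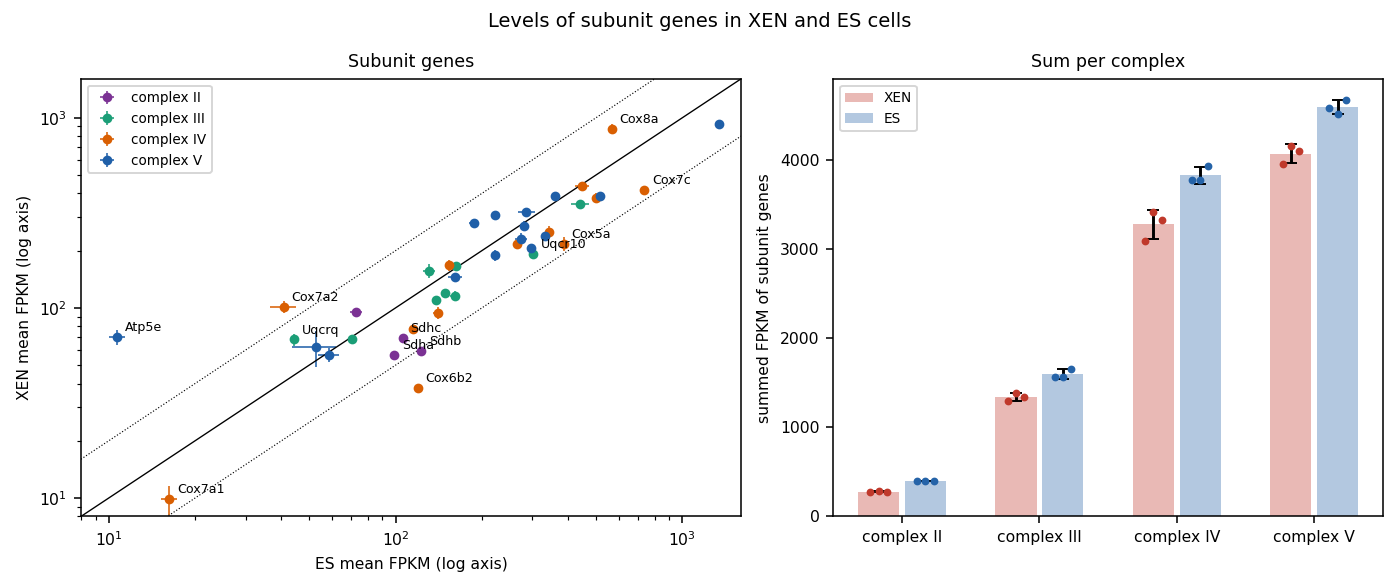
Left, mean FPKM of each subunit gene in XEN (y axis) and ES cells (x axis), both on log axes, with SD bars over 3 libraries, a line of equal level and dotted lines at 2-fold; Cox6a2 and the untested Cox4i2 and Cox7b2 are left out. Right, summed FPKM per complex over the subunit genes of the symbol rule, with bars for means, error bars for SD and points for libraries. XEN points lie below ES points in every complex, with the lowest ratio, 0.701, in complex II.

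In complex II, 3 of the 4 subunits were lower and 1 was higher, against 46.7% and 42.0% of all genes tested. Sdhb, the iron-sulphur subunit whose promoter is printed above, fell the most of them. It had 59.0, 61.9 and 64.2 CPM in XEN libraries and 116, 113 and 120.0 CPM in ES libraries, a log2 fold change of -0.91 ± 0.04 (SE, adjusted p = 4.0e-14). Sdha, the flavoprotein that oxidises succinate, had 164, 164 and 161 CPM in XEN libraries and 261, 265 and 255 CPM in ES libraries. For both genes all XEN libraries were below all ES libraries. Sdhc, a membrane anchor, was lower (log2 fold change -0.48). Sdhd, the other anchor, went the other way, with 114, 121 and 116 CPM in XEN libraries and 81.9, 78.7 and 87.0 CPM in ES libraries. As levels per length, Sdhd stood at 94.8 ± 3.2 FPKM in XEN cells, above the 56.5 to 69.4 FPKM of its partners, while in ES cells its 72.9 ± 3.5 FPKM was below their 98.7 to 123 FPKM (SD, n = 3 each).

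Of the 4 assembly factors of complex II, 2 were higher and 2 did not pass, while 42.0% of all genes tested were higher. Sdhaf2, which attaches the flavin to SDHA, had 72.7, 73.1 and 69.3 CPM in XEN libraries and 29.4, 29.8 and 28.7 CPM in ES libraries. This was a 2.45-fold rise that held against a 2-fold change (adjusted p = 1.2e-06, edgeR glmTreat). Sdhaf4, which helps join SDHA to SDHB, was called higher by 0.32 (adjusted p = 0.039) at 4.62 to 6.02 CPM in XEN and 3.83 to 4.69 CPM in ES libraries, but its groups overlapped. That call was lost under 12 of the alternatives, among them the leaving out of XEN A (log2 fold change 0.24, adjusted p = 0.148) or of ES A (0.24, adjusted p = 0.168). Sdhaf1 and Sdhaf3, which serve the iron-sulphur clusters of SDHB, did not pass the test, with log2 fold changes of 0.03 (-0.12 with upper-quartile factors) and 0.33.

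In complex III, the 2 core proteins and cytochrome c1 were lower and the small subunits split. Uqcrc1, core protein 1, had 178, 196 and 194 CPM in XEN libraries and 231, 238 and 251 CPM in ES libraries (log2 fold change -0.34). Uqcrc2, core protein 2, and Cyc1, cytochrome c1, were lower as well (log2 fold changes -0.20 and -0.19). Uqcrfs1, the Rieske iron-sulphur protein, missed the threshold (0.09, adjusted p = 0.056), and its value was -0.06 with upper-quartile factors. Uqcrb, the most abundant of the 9 at 349.7 ± 5.2 FPKM in XEN and 441 ± 31 FPKM in ES cells (SD, n = 3 each), and Uqcr10 were lower (log2 fold changes -0.22 and -0.55). Uqcrq rose, with 94.1, 108 and 100.4 CPM in XEN libraries and 59.0, 58.8 and 61.7 CPM in ES libraries, a log2 fold change of 0.75 ± 0.06 (SE, adjusted p = 6.6e-12). Uqcrh, the hinge protein, rose by 0.37. Uqcr11 was called higher by 0.13, and this was -0.01 and not called with upper-quartile factors.

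Of the complex III factors, Uqcc2, which acts on newly made cytochrome b, was lower. It had 9.26, 11.5 and 9.24 CPM in XEN libraries and 19.3, 19.4 and 20.9 CPM in ES libraries, a log2 fold change of -0.99 ± 0.11 (SE, adjusted p = 1.2e-09). All XEN libraries lay below all ES libraries, at about the 2-fold line, so the test against 2-fold was not passed (adjusted p = 0.586). Bcs1l, which inserts the Rieske protein, was lower (log2 fold change -0.34). Uqcc1, which acts with Uqcc2 on cytochrome b, was called higher by 0.17 with overlapping groups, and that call was lost with upper-quartile factors (0.03, adjusted p = 0.673) and without ES A (0.13, adjusted p = 0.055). Uqcc3 did not pass the test (0.07, and -0.08 with upper-quartile factors).

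Cytochrome c, the carrier between complexes III and IV, was higher in XEN cells. Cycs, its somatic gene, had 289.9, 275 and 263 CPM in XEN libraries and 109.55, 105 and 112 CPM in ES libraries. Every XEN library was above every ES library by more than 2-fold, and the log2 fold change was 1.34 ± 0.05 (SE, adjusted p = 2.0e-17). The testis form Cyct, which is not among the 71, showed the opposite. It had 0 counts in all 3 XEN libraries and 36, 52 and 53 counts in ES libraries, at least 47.9-fold lower in XEN cells when 3 counts over the group are taken as the floor. In ES cells Cyct made up 9.12% ± 1.55 of the FPKM of both forms (SD, n = 3), and in XEN cells it was listed at 0.

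**Figure D3:**
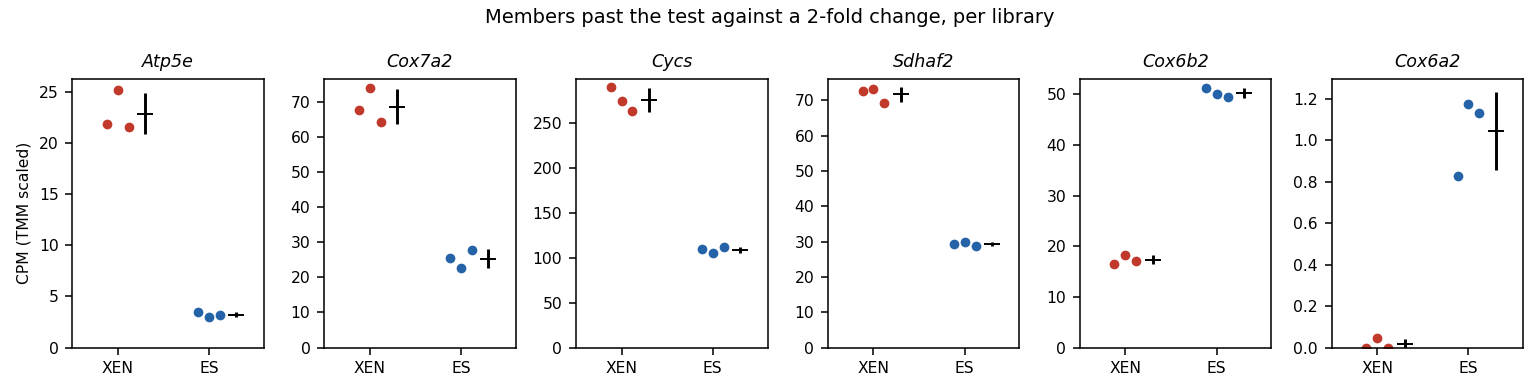
CPM per library of the 6 genes past the test against a 2-fold change, each panel with its own linear y axis from 0, points for libraries, and a dash with bar for mean and SD. XEN and ES points are apart in every panel, with Atp5e at 21.5 to 25.2 CPM in XEN and 3.01 to 3.46 CPM in ES libraries.

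Complex IV had 16 nuclear subunit genes in the tables, of which 14 were tested. Of these, 3 were higher, 10 lower and 1 did not pass, against 42.0% higher and 46.7% lower over all genes tested. The risers included its most abundant gene, Cox8a, the widely used form of subunit 8. Cox8a had 377, 408 and 417 CPM in XEN libraries and 233, 239 and 246 CPM in ES libraries, with no overlap (log2 fold change 0.74 ± 0.05, SE, adjusted p = 5.5e-13). In FPKM it stood at 877 ± 49 in XEN and 568 ± 15 in ES cells (SD, n = 3 each), whereas Cox7c, the leading gene of ES cells, stood at 416 ± 22 FPKM in XEN and 737 ± 17 FPKM in ES cells. Cox6c was called higher by 0.24, and lost that call with upper-quartile factors (0.09, adjusted p = 0.095). Cox5a and Cox7c fell most among the widely used subunits (log2 fold change -0.71 each). Cox4i1, Cox5b, Cox6a1 and Cox7b, also widely used subunits, were lower too (log2 fold changes -0.33, -0.19, -0.28 and -0.45). Without Cox8a, the summed FPKM of complex IV was lower in XEN cells with a log2 difference of -0.44, against -0.23 with it.

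Within the subunit 7a family, levels per length were led by different genes in the 2 cell types. Cox7a2, its widely used form, had 67.6, 73.9 and 64.1 CPM in XEN libraries and 25.6, 22.6 and 27.8 CPM in ES libraries. This was a 2.71-fold rise (log2 fold change 1.44 ± 0.11, SE, adjusted p = 1.0e-10). Cox7a2l, a relative that joins complexes III and IV into supercomplexes, had 75.7, 82.6 and 83.1 CPM in XEN libraries and 111, 106 and 112 CPM in ES libraries, and fell by 0.45 on the log2 scale. Cox7a1, the heart and muscle form, was low in both and lower in XEN cells, with 2.40 to 3.40 CPM in XEN and 4.18 to 4.79 CPM in ES libraries. As a share of the family's FPKM, Cox7a2 made up 55.3%, 54.6% and 51.3% in XEN libraries and 23.6%, 22.3% and 24.97% in ES libraries. Cox7a2l made up 41.1% ± 1.88 in XEN and 67.0% ± 1.32 in ES cells (SD, n = 3 each). Per length, the first-ranked gene of the family was thus Cox7a2 in every XEN library and Cox7a2l in every ES library. Counts alone, which are not corrected for the longer Cox7a2l, were higher for Cox7a2l in all 6 libraries. Each share differed with exact permutation p = 0.1, the smallest possible, and 0.113 after adjustment over 9 shares.

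Subunit 6b differed through its testis form. Cox6b2 had 16.5, 18.3 and 17.1 CPM in XEN libraries and 51.3, 50.1 and 49.5 CPM in ES libraries, a log2 fold change of -1.54 ± 0.04 (SE, adjusted p = 3.3e-16), and passed the test against a 2-fold change. Cox6b1, the widely used form, did not pass the test (0.08, adjusted p = 0.088), and that value was -0.07 with upper-quartile factors. Cox6b2 made up 7.96% ± 0.203 of the family's FPKM in XEN cells and 21.1% ± 1.14 in ES cells (SD, n = 3 each). The heart and muscle form Cox6a2 had 0, 1 and 0 counts in XEN libraries and 18, 27 and 26 counts in ES libraries. The ratio of ES to XEN counts was 72.4 with a 95% counting interval of 12.6 to 2898, which covers counting error only. Cox6a2 was still 0.378% ± 0.063 of its family in ES cells (SD, n = 3), so Cox6a1 made up nearly all of subunit 6a in both. Cox4i2, the lung form of subunit 4, had 2, 0 and 1 counts in XEN and 0, 1 and 1 counts in ES libraries. Cox7b2, the testis form of subunit 7b, had 0, 0 and 1 counts in XEN and 1, 1 and 1 counts in ES libraries. Neither could be tested, and no difference was detectable at this depth.

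**Figure D4:**
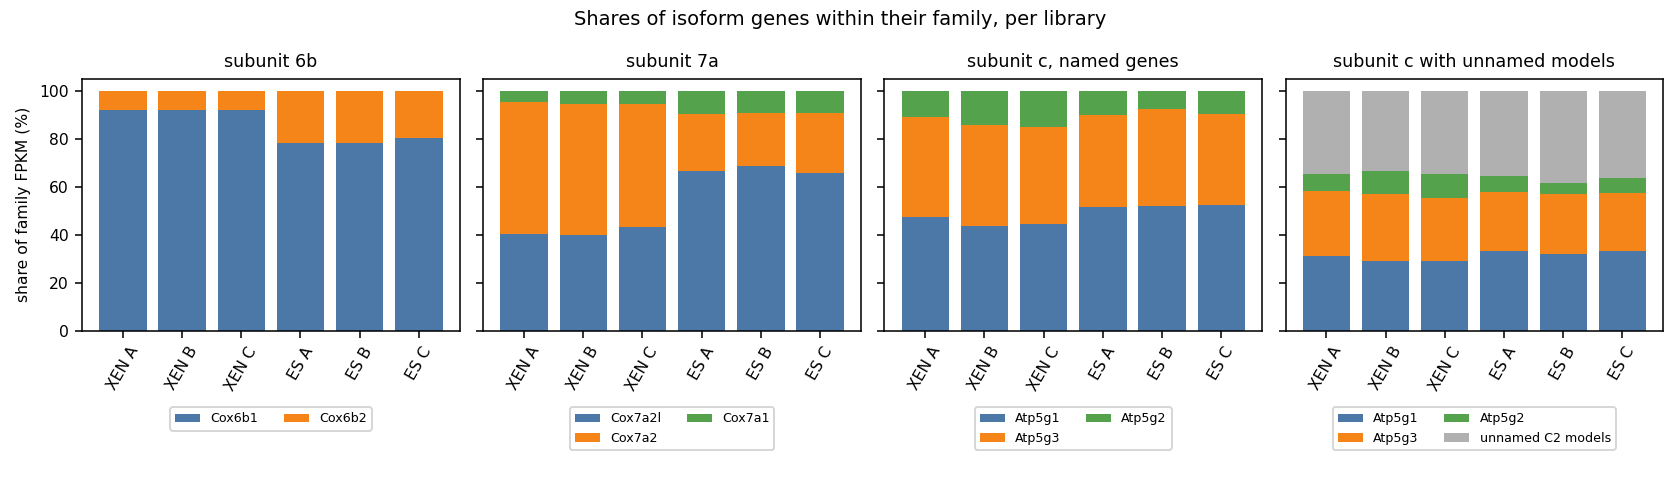
Share of each isoform gene in the summed FPKM of its family (y axis, percent) in each library, XEN libraries left and ES libraries right. Cox7a2 leads subunit 7a in XEN and Cox7a2l in ES libraries, Cox6b2 takes a larger share in ES libraries, and unnamed models take 34.2% in XEN and 36.8% in ES cells of subunit c once they are added.

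Assembly factors of complex IV were balanced, with 5 higher, 5 lower and 4 that did not pass, against 42.0% and 46.7% of all genes tested. In haem A synthesis, Cox15, the haem A synthase, had 105, 99.8 and 101 CPM in XEN libraries and 49.9, 51.3 and 51.3 CPM in ES libraries. Its log2 fold change of 1.004 ± 0.02 (SE, adjusted p = 3.1e-15) lies on the 2-fold line. Cox10, which makes haem O one step earlier, was lower (log2 fold change -0.14, adjusted p = 0.021). Among copper factors, Sco2 and Sco1, which both deliver copper to subunit 2, moved apart. Sco2 had 9.23, 9.93 and 8.40 CPM in XEN libraries and 5.29, 5.21 and 4.43 CPM in ES libraries (log2 fold change 0.89). Sco1 had 23.2, 23.7 and 21.9 CPM in XEN libraries and 40.5, 37.8 and 41.2 CPM in ES libraries (-0.79). The copper chaperone Cox17 was higher by 0.48, Cox19, another copper factor, was called higher by 0.21 (adjusted p = 0.042), and Cox11 did not pass (0.00). The call of Cox19 was lost with RLE, upper-quartile (0.06, adjusted p = 0.547) and no composition factors. Pet100, an assembly factor, and Cox18, which inserts subunit 2 into the membrane, were lower (log2 fold changes -0.98 and -0.57). Lrpprc, which stabilises mitochondrial mRNA, was lower (log2 fold change -0.26). Cox16, which acts on subunit 2, was higher by 0.33, while its FPKM was not (10.4 ± 0.85 in XEN and 12.3 ± 0.58 in ES cells, SD, n = 3 each). The gene length that the tables give for Cox16 was longer in XEN libraries. Cox14 and Surf1, which act on subunit 1, and Cox20, a chaperone of subunit 2, did not pass the test, with -0.07, -0.14 and -0.09. With upper-quartile factors all 3 were called lower (-0.22, -0.28 and -0.24, adjusted p = 0.030, 0.0014 and 0.0048).

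Over all 26 assembly factors and regulators of complexes II to V, 8 were higher, 10 lower and 8 did not pass. Shares over all genes tested were 42.0% higher and 46.7% lower. With upper-quartile factors the split was 5 higher and 13 lower, and without ES A it was 5 higher and 10 lower. Exons of 19 of the 71 genes overlap exons of another protein-coding gene in the GENCODE annotation of GRCm38. The largest overlap was 2130 bases, for Cox16 with Gm20498 on the same strand. Whether counting used strand is not given in the sources used here, so reads of such genes cannot be told apart from those of their neighbours. Many respiratory genes also have processed copies in the genome, and RSEM, which the processing notes name, divides reads that match several models by a statistical model; how far this moved values was not tested. In complex II, the overlap came to 1733 bases for Sdhaf1 with E130208F15Rik and to 94 bases for Sdhaf2 with Cpsf7. In complex III, it came to 504 bases for Uqcrc2 with Pdzd9 and to 50 bases for Uqcrb with Gm10767. For complex IV factors, it came to 941 bases for Pet100 with Pcp2 and to 856 bases at most for Sco2 with Tymp or Ncaph2. It was 804 bases for Cox20 with Hnrnpu, 688 bases for Cox11 with Tom1l1 and 444 bases at most for Cox15 with Entpd7 or Cutc. Cox17 overlapped Gm21987 by 257 bases on the same strand, and Surf1 overlapped Surf2 by 137 bases. For complex IV subunits, it was 250 bases for Cox6c with Vps13b, 154 for Cox4i1 with Emc8 and 70 for Cox6a2 with Itgad. For complex V, it was 397 bases for Atp5j with Gabpa, 337 for Atp5f1 with Wdr77, 129 for Atp5a1 with Haus1 and 68 for Atp5d with Cbarp.

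In complex V, 5 of 15 subunit genes were higher, 6 lower and 4 did not pass, against 42.0% and 46.7% of all genes tested. The 3 large proteins of F1 were lower. Atp5b, F1 beta and the most abundant of the 71 genes, had 1698, 1711 and 1747 CPM in XEN libraries and 2264, 2269 and 2280 CPM in ES libraries (log2 fold change -0.40 ± 0.01, SE, adjusted p = 1.6e-09). Atp5a1, F1 alpha, and Atp5c1, F1 gamma, were lower as well (log2 fold changes -0.29 and -0.36). The 2 small proteins at the foot of the central stalk, to which F1 gamma also belongs, were higher. Atp5d, F1 delta, had 228, 247 and 249 CPM in XEN libraries and 143, 147 and 154 CPM in ES libraries, a log2 fold change of 0.70. Atp5e, F1 epsilon, had 21.9, 25.2 and 21.5 CPM in XEN libraries and 3.46, 3.01 and 3.22 CPM in ES libraries. Its rise of 7.08-fold (log2 fold change 2.82 ± 0.09, SE, adjusted p = 1.9e-16) was the largest of the 69 tested genes. In FPKM, Atp5e stood at 70.3 ± 6.2 in XEN and 10.7 ± 0.70 in ES cells (SD, n = 3 each), below the median complex V subunit of 238 FPKM in XEN and 274 FPKM in ES cells.

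The peripheral stalk was higher in 3 of its 4 genes, against 42.0% of all genes tested. Atp5j (F6), whose promoter is printed above, rose by 0.64, Atp5h (subunit d) by 0.28 and Atp5o (OSCP) by 0.23, while Atp5f1 (subunit b) did not pass (-0.01) but was called lower with upper-quartile factors (-0.16, adjusted p = 0.0032). The call of Atp5o was lost with upper-quartile factors (adjusted p = 0.058). Of the small membrane subunits, Atp5l (g) was lower (log2 fold change -0.14), and Atp5j2 (f) and Atp5k (e) did not pass, with 0.06 and 0.05, or -0.08 and -0.09 with upper-quartile factors. Without Atp5b, the summed FPKM of complex V differed by -0.05 on the log2 scale, against -0.17 with it.

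Subunit c of the membrane ring is made from 3 genes that code for the same mature protein. Atp5g1 had 148, 153 and 148 CPM in XEN libraries and 199, 191 and 206 CPM in ES libraries (log2 fold change -0.41). Atp5g3 was slightly lower (log2 fold change -0.12, adjusted p = 0.019), and that call was lost without XEN A (-0.08, adjusted p = 0.080), XEN C (-0.10, adjusted p = 0.066) or ES A (-0.12, adjusted p = 0.054). Atp5g2 had 26.4, 39.1 and 39.4 CPM in XEN libraries and 30.3, 21.8 and 30.1 CPM in ES libraries, and did not pass (0.35, adjusted p = 0.220). XEN A lay among the ES libraries, and without it Atp5g2 was higher by 0.52 (adjusted p = 0.040). The tables also list 2 unnamed gene models that they describe as subunit C2, the product of Atp5g2. These held 228, 241 and 244 FPKM in XEN libraries and 321, 343 and 337 FPKM in ES libraries, several times the 62.0 ± 13 FPKM in XEN and 52.7 ± 9.2 FPKM in ES cells of Atp5g2 itself (SD, n = 3 each). Summed with them, Atp5g2 had a log2 fold change of -0.25 (adjusted p = 5.2e-05), the opposite direction, so that its change turned on where reads were assigned. Among named genes, Atp5g2 made up 13.5% ± 2.29 of subunit c in XEN and 9.18% ± 1.35 in ES cells, and with the unnamed models 43.1% ± 1.40 in XEN and 42.6% ± 0.457 in ES cells (SD, n = 3 each, exact permutation p = 0.8).

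Of the factors around complex V, 3 of 4 were lower, against 46.7% of all genes tested. Atpaf1, which assembles F1 beta, had 44.3, 42.8 and 43.2 CPM in XEN libraries and 66.6, 66.6 and 69.5 CPM in ES libraries (log2 fold change -0.64). Atpaf2, which assembles F1 alpha, was lower (log2 fold change -0.32). Atpif1, the inhibitor of ATP hydrolysis, was lower (log2 fold change -0.36), with 103, 124 and 124 CPM in XEN libraries and 144, 151 and 156 CPM in ES libraries. Atp5s, coupling factor B, did not pass (0.12, and -0.02 with upper-quartile factors).

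For the part of complex IV that mitochondrial DNA encodes, the tables hold an unnamed model described as subunit 1. At 6924 bases it is longer than that gene, so its values cannot be read as subunit 1 alone. It took 1.26% to 1.29% of the counts in XEN libraries and 1.76% to 2.03% in ES libraries, a log2 fold change of -0.44 ± 0.06 (SE, adjusted p = 1.7e-08).

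The symbol rule leaves out other genes of these complexes and of mitochondrial functions around them. Of 32 such genes listed, 30 were in the tables and 29 were tested. Of these, 12 were higher, 10 lower and 7 did not pass, against 42.0% higher and 46.7% lower over all genes tested. With upper-quartile factors, 9 were higher and 13 lower. The 3 past the test against a 2-fold change were all lower in XEN cells: Cyct, Smim20 and Fastkd1. Cyct and Smim20 had enough counts to be tested only through their ES libraries, so they could not have been called higher. Smim20, also called MITRAC7, holds newly made subunit 1 for complex IV assembly. It had 1, 0 and 0 counts in XEN libraries and 184, 195 and 188 counts in ES libraries, a ratio of ES to XEN counts of 578 with a 95% counting interval of 103 to 22868 for counting error only. Fastkd1, a mitochondrial RNA-binding protein, had 237, 245 and 253 counts in XEN libraries and 617, 623 and 603 counts in ES libraries (log2 fold change -1.22). Among listed genes of high level, Ndufa4, Usmg5 and 2010107E04Rik were called higher, within 2-fold (log2 fold changes 0.74, 0.92 and 0.59). They stood at 561, 503 and 215 FPKM in XEN and 362, 286 and 153 FPKM in ES cells. Slc25a3, at 350 FPKM in XEN and 370 FPKM in ES cells, did not pass the test (0.05). None of the 32 listed genes is part of the sums per complex given above.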

How the data were processed

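Total RNA of 3 XEN and 3 ES libraries was sequenced, and the authors deposited a gene table per library. The submitters' processing notes name mm9, Bowtie2, RSEM and DESeq2, without versions. The deposited tables hold expected counts per gene, which were rounded to whole numbers here, and the authors' FPKM values; per the file headers the tables also give the gene length used. Genes under 0.01 FPKM are absent from a table and were taken as 0. Depth was 20675311 to 22375875 expected counts per library, so that 3 counts in a library were 0.134 to 0.145 CPM before TMM scaling, which the CPM values in the text include.

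Counts were fitted over all genes with the edgeR 4.0.16 quasi-likelihood test in R 4.3.3 (robust, filterByExpr, TMM factors of 0.951 to 1.05, group as the only term), and glmTreat tested against 2-fold. P-values were adjusted by Benjamini-Hochberg over 13581 genes at 0.05. SEs of log2 fold changes were taken over libraries, on log2 CPM with a prior count of 2. Sums and shares of FPKM per library were compared by two-sided exact permutation over 20 arrangements (scipy 1.17.1). The fit was tested on simulated data.

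The members and lists were chosen with earlier results of these data known. Named genes are, per class, those past the 2-fold test, up to 2 with the largest called change in each direction, the most abundant, isoform families and genes too low to test; others are given in short to account for every member, by their place in the complex. This rule named 40 of the 71. Promoter windows are RefSeq sequences in GRCm38.p6; positions in mm9 were not used here. No 2 libraries of a group were alike within sampling noise (chi-square over degrees of freedom at least 2.44). Alternatives were other factors, filters and tools (DESeq2 1.42.0, limma 3.58.1, also on log2(FPKM + 1) and log2(FPKM + 0.1)), a replicate block, leaving out each library, and the treatment of unnamed models; adding these models to the complex V sum was chosen after seeing the data.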

Additional observations from a re-analysis of the deposited data

How the results depend on the processing

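The counts of genes called higher and lower stayed within 1.5 times for all 71 genes and for the subunits of each complex under the 18 alternatives run, and so did the 10 lower assembly factors. The 8 assembly factors called higher became 5 with upper-quartile factors and 5 with no composition factors, 4 on log2(FPKM + 1) and 4 on log2(FPKM + 0.1), and ran between 5 and 8 when a library was left out, with 5 without ES A. These scalings shift the median log2 fold change of all genes by -0.15 (upper quartile) and -0.13 (no factors).

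Libraries of the same letter deviated together very weakly, with r of 0.0076 to 0.033, against -0.0226 to 0.00199 for other letters. The letters are not taken as pairs. With a replicate block, 19 genes were higher and 34 lower, and of the named genes Sdhaf4 lost its call. Sdhaf1, not called, turned to -0.12 (upper quartile), -0.11 (no factors), -0.10 (FPKM + 1 and + 0.1: -0.0962 and -0.0999), and ran from -0.0387 to 0.0654 when a library was left out. Cox6b1, not called, turned to -0.0666, -0.0533, -0.0319 and -0.0320 under the same 4 settings. Atp5g2 turned to -0.246 with unnamed models summed in.

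Without the most abundant subunit, the log2 difference of summed FPKM became -0.331 (complex II), -0.443 (IV) and -0.0504 (V); over complex I it became -0.139 (II), -0.0266 (III), -0.250 (IV) and 0.142 (V), and over complexes II to V -0.123, -0.00777, -0.159 and 0.125. With FPKM rescaled to the same total per library, it became -0.386 (II), -0.121 (III), -0.0975 (IV) and -0.0469 (V). In CPM instead of FPKM, the XEN minus ES difference in family share, in percentage points, was -0.496 for Cox6a2, -1.29 for Cox7a1, 27.0 for Cox7a2 and -1.88 for Cyct. With unnamed models added it was -3.13 for Atp5g1 and 0.493 for Atp5g2. The cause of these moves was not tested beyond the construction of each alternative. Genes at a few counts, such as Cox4i2, are limited by depth.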

Other observations

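The gene length in the tables is weighted by transcript use, and it moved by more than 5% between the groups for 2 of the 71 genes. Cox16, which acts on subunit 2 of complex IV, had a length of 1403 ± 56 bases in XEN and 1053 ± 19 bases in ES tables (SD, n = 3 each), with no overlap. Cox20, the chaperone of subunit 2, had a length of 956 ± 28 bases in XEN and 843 ± 56 bases in ES tables. Two-sided exact permutation p was 0.1 for both, the smallest possible. Exons of Cox16 overlap those of Gm20498 on the same strand, by 2130 bases. Exons of Cox20 overlap those of Hnrnpu on the opposite strand, by 804 bases. The part of these overlaps in the change of length was not tested.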
